A study of Mus musculus with 6 samples.

Results

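Ribosome biogenesis and nucleolar genes were followed in 3 stromal cell subpopulations of mouse hind limb muscle, on day 3 after acute injury and in uninjured muscle. The set was a given list of 35 genes for nucleolar and pre-rRNA processing proteins, and all 35 were found among the 22483 genes of the expression table. The injured groups were sorted from muscle that had received cardiotoxin, a snake venom toxin that destroys muscle fibers, at 20 uM, and the control groups came from the untreated contralateral muscle of young adult Swiss white mice. CD140a is the protein product of Pdgfra, Sca1 is that of Ly6a, and cells with CD45, CD31 or CD11b on their surface had been gated out. The subpopulations carried Sca1 alone (CD140a(-)/Sca1(+)), CD140a alone (CD140a(+)/Sca1(-)) or both proteins (CD140a(+)/Sca1(+)), each with 1 library from injury and 1 from control, 6 in all. No subpopulation was sequenced again in the same state, and nothing in the labels says how many animals went into a library. The p-values below therefore rest on the 3 subpopulations as replicates of the injury, and the contralateral muscle of an injured animal is not the muscle of an uninjured one.

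Ribosomes are assembled in the nucleolus. RNA polymerase I transcribes the precursor of the ribosomal RNAs there, small nucleolar ribonucleoproteins (snoRNPs) guide its chemical modification, and a large set of assembly factors cleaves, folds and packs it into the small and the large subunit. The transcription factor Myc induces many of these genes in cells that enter growth, and resting stromal cells of muscle are known to leave quiescence in the first days after injury.

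Myc binds DNA with its partner Max at the E-box CACGTG, which reads the same on both strands, so the window from 250 bases before to 50 bases after each gene's start (RefSeq, GRCm38.p6) was searched for these letters. A window was matched for 30 of the 35 genes, and Myc, Fbl, Npm1, Rrp12 and Bop1 had no entry. CACGTG was present for 7 of these 30 genes (23.3%), for 22 of 124 other ribosome biogenesis genes (17.7%) and for 8.09% of all 27025 genes with a window. Of the 7 boxes, 6 began downstream of the start base, against 13.9% of the 2589 boxes in all windows. The 30 bases around each box are shown, 5′ to 3′ on the strand of the gene with the box in capitals, since the box is the known binding sequence of a member of the set, and 23 of the 30 genes had none in their window. A match is a description of the sequence and not a measured binding site.
Ltv1 (chr10:13193092-13193121, minus strand): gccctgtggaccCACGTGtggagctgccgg
Mybbp1a (chr11:72441347-72441376, plus strand): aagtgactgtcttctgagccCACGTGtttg
Nop2 (chr6:125131811-125131840, plus strand): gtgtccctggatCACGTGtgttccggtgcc
Pes1 (chr11:3963965-3963994, plus strand): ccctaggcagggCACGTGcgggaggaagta
Tsr1 (chr11:74898092-74898121, plus strand): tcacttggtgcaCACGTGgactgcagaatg
Utp20 (chr10:88826765-88826794, minus strand): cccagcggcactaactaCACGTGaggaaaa
Wdr43 (chr17:71616220-71616249, plus strand): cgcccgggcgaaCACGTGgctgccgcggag

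Levels below are normalized counts, that is, read counts divided by the size factor of the library, and changes are log2 differences on the deposited variance-stabilized scale, which shrinks the change of low genes. Depth was estimated at 2094353 to 14173590 reads per library. The shallowest library, from injured CD140a(+)/Sca1(-) cells, stood apart: 69.1% of all genes were listed at 0 in it, against 28.2% to 39.0% in the other 5. It lacked any read for 928 of the 5274 genes that reached 20 normalized counts in every other library, and no other library missed more than 2 such genes. The main results that rest on it are given with and without its pair. The Pdgfra transcript did not follow the gate: in injury CD140a(-)/Sca1(+), CD140a(+)/Sca1(-) and then CD140a(+)/Sca1(+) cells it had 335, 203 and 1240 normalized counts, and in control 211, 33.6 and 26.3. Ly6a was lowest in CD140a(+)/Sca1(-) cells, as gated, with 1177, 2.09 and 4099 in injury and 5850, 70.4 and 253 in control. The 13 fibro-adipogenic and fibroblast markers summed to 52270 to 76558 normalized counts in the injury libraries and to 4249 to 15084 in the control libraries. Of these 13, 10 had a mean change above 0, and 7 were called higher and none lower. The 8 endothelial markers summed to 51.7 to 278 normalized counts in the injury libraries and to 759 to 2640.5 in the control libraries. All 8 were lower in every pair, and 5 were called lower by the rule for injury given below. The 4 Schwann markers summed to 0.906 to 11.05 in injury and to 22.2 to 1401 in control, and all 4 were called lower. The 5 red blood cell markers summed to 0 to 665 in injury and to 695 to 12159 in control, and 4 were called lower. The 5 pericyte and smooth muscle markers summed to 174 to 208 in injury and to 281 to 580 in control, with 3 called lower and 1 higher. The 7 muscle stem and myoblast markers summed to 384 to 2250 in injury and to 102 to 1697 in control, with Vcam1 called higher. The 5 muscle fiber markers summed to 0 to 17.6 in injury and to 8.79 to 45.7 in control, and none was called. The 10 leukocyte markers summed to 372, 889 and 238 in injured CD140a(-)/Sca1(+), CD140a(+)/Sca1(-) and then CD140a(+)/Sca1(+) libraries. In control the sums were 444, 160 and 93.3, and 1 marker was called higher. At least 2-fold, 1 was higher and 3 lower within CD140a(-)/Sca1(+) cells (all genes tested 6.18% and 14.2%). Within CD140a(+)/Sca1(-) cells 5 were higher and 0 lower (all genes 12.8% and 43.7%). Within CD140a(+)/Sca1(+) cells 4 were higher and 0 lower (all genes 21.8% and 14.0%). The highest of the 6 sums was thus that of the shallowest library. The part of these other cells in the results was not tested, and in bulk samples fewer cells of a type and less RNA per cell cannot be told apart.

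None of the 35 genes passed the test for injury in either direction. A gene was called at an unadjusted p under 0.05 in limma and a change of at least 3-fold, and 2.3% of the 15532 genes tested were called higher and 3.46% lower by this rule. Without the limit on the fold, 2.93% of all genes were higher and 5.06% lower, and again none of the 35. The lowest adjusted p (limma, Benjamini-Hochberg over all genes tested) among them was 0.644, for Myc and Fbl. No gene of the whole table had an adjusted p under 0.05 in this fit, where 1241 had an unadjusted p under 0.05 and the lowest adjusted p was 0.192. The 35 changes ran from -1.87 to 0.94, with a median of -0.49 against -0.33 for all genes tested, and 11 of the 35 were above 0. Every 95% interval included 0. The upper end of the interval lay below a 3-fold increase for 30 of the 35 genes, and the whole interval lay within 3-fold in either direction for 11.

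**Figure D1:**
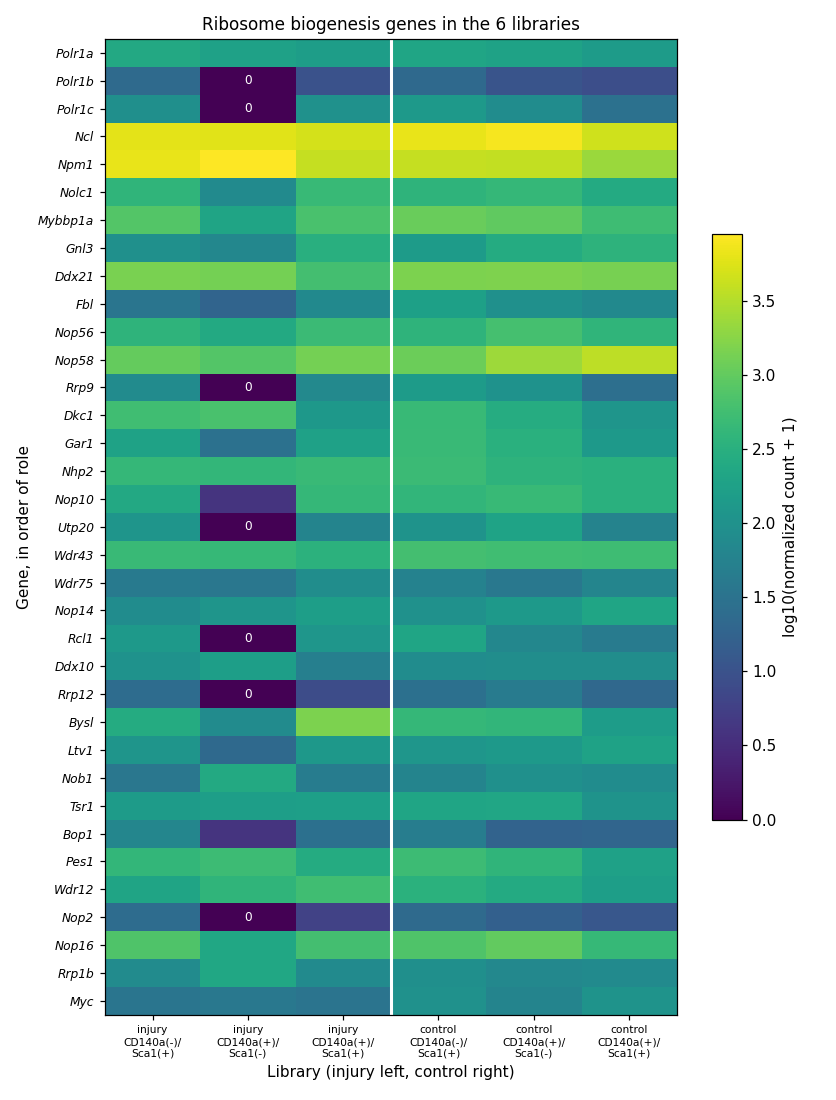
Levels of the 35 ribosome biogenesis genes (rows, in order of role) in the 3 injury libraries (left) and the 3 control libraries (right), as log10 of the normalized count plus 1. A white 0 marks a gene with no read, and all 7 such fields lie in the injured CD140a(+)/Sca1(-) library, while Ncl is the brightest row in 4 libraries and Npm1 in the other 2, and Nop58 exceeds Npm1 in the control CD140a(+)/Sca1(+) library.

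**Figure D2:**
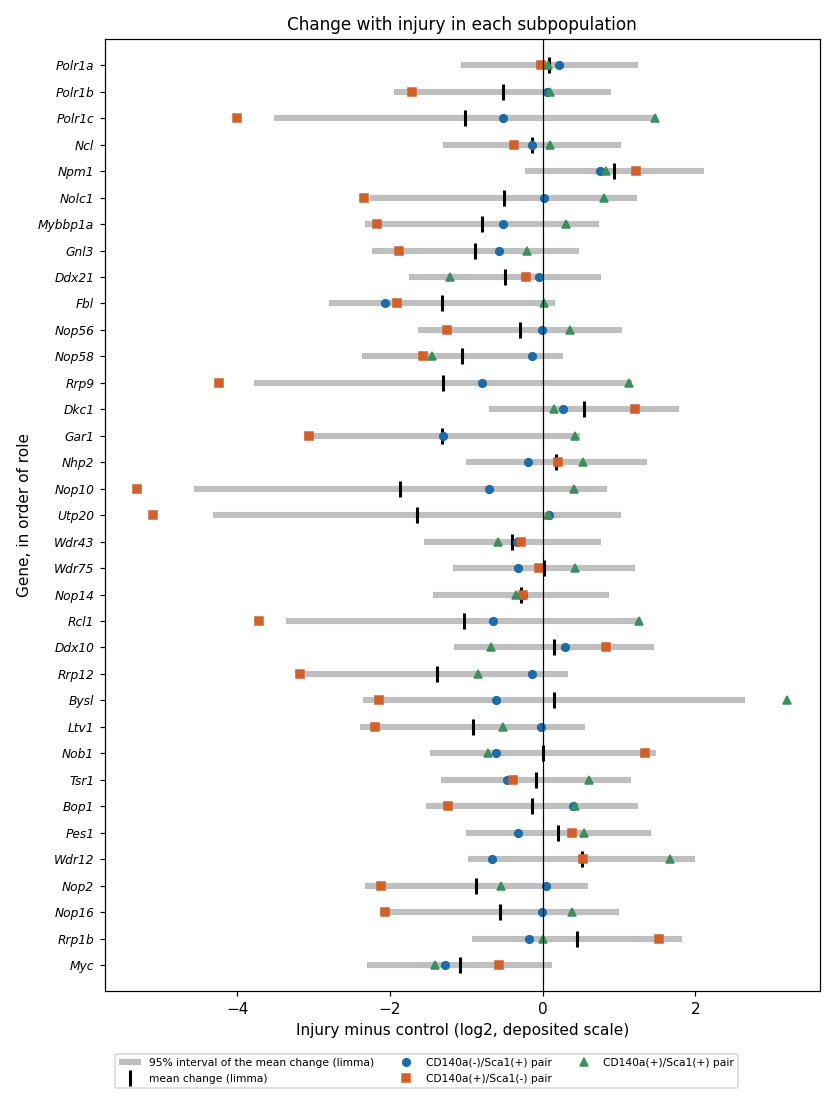
Log2 change of each gene, injury minus control, in the pair of each subpopulation (points, 1 library against 1) with the mean change (black line) and its 95% interval in limma (gray bar). All 35 intervals include 0, and the points farthest to the left, among them Nop10 and Utp20, are those of the CD140a(+)/Sca1(-) pair.

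Npm1 and Ncl were at high levels in every library and did not change alike. Npm1 encodes nucleophosmin, a nucleolar chaperone that takes part in assembly and export of ribosomal subunits (chromosome 11, 33152287 to 33163206, GRCm38). It had 6678, 8876 and 4011 normalized counts in injured CD140a(-)/Sca1(+), CD140a(+)/Sca1(-) and then CD140a(+)/Sca1(+) cells, against 3965, 3799 and 2245 in the control cells in the same order. All 3 injury libraries were above all 3 control libraries, which held for 4.18% of all genes tested, and Npm1 was the only one of the 35 for which it did. The ratios within the subpopulations were 1.68, 2.34 and 1.79, and the mean change of 0.94 (SE 0.48, 95% interval -0.23 to 2.11, n = 3 pairs) did not pass the test, with an adjusted p of 0.655 in limma. Processed copies of Npm1 exist in the mouse genome, and how reads shared with them were counted is not given in the sources used here. Ncl encodes nucleolin, a main structural protein of the nucleolus (chromosome 1, 86344719 to 86359400). Its levels were 6046, 5936 and 4898 in the injured cells, against 6665, 7734 and 4579 in the control cells. The 2 groups overlapped, and the change was -0.14 (95% interval -1.31 to 1.03).

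The 35 genes took 1.05%, 1.04% and 0.856% of all normalized counts in injured CD140a(-)/Sca1(+), CD140a(+)/Sca1(-) and then CD140a(+)/Sca1(+) libraries, against 0.960%, 1.12% and 0.823% in the control libraries. The mean difference was 0.017 ± 0.082 percentage points (SD, n = 3 pairs). Ncl and Npm1 together made up 58.5%, 69.1% and 48.2% of that sum in the injury libraries and 49.3%, 49.5% and 40.0% in the control libraries, so their part was larger with injury in every subpopulation. The other 33 genes took 0.436%, 0.323% and 0.444% in injury and 0.487%, 0.563% and 0.494% in control. The 3 injury values lay below all 3 control values, which was not a decline of most genes in every pair. In CD140a(+)/Sca1(+) cells 22 of the 33 changes were above 0. The 33 genes summed to 9586 in injury and 10227 in control there, of which Nop58 alone had 1324 and 3635. In CD140a(-)/Sca1(+) and CD140a(+)/Sca1(-) cells 8 and 7 of the 33 were above 0, the latter with the library that lacked reads. These shares have no test.

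Myc was lower with injury in 3 of 3 pairs. The gene (chromosome 15, 61985391 to 61990374) had 33.8, 36.5 and 32.5 normalized counts in injured CD140a(-)/Sca1(+), CD140a(+)/Sca1(-) and then CD140a(+)/Sca1(+) cells, against 97.0, 59.4 and 105 in the control cells. The injury libraries lay close to each other and below all control libraries, as they did for 11.2% of all genes tested. Levels were 2.87-fold, 1.63-fold and 3.22-fold lower within the subpopulations, and the mean change of -1.09 (SE 0.50, 95% interval -2.30 to 0.12) did not pass the test. Under another scaling, by the 75th percentile, the change was -1.64 and was called (adjusted p in limma 0.410, with 0.410 to 0.849 over all alternatives). That percentile was taken over genes with reads. It divided the injured CD140a(+)/Sca1(-) library by 2.47 and the others by 0.699 to 0.917, which lowered all levels of that library against the rest. Without the CD140a(+)/Sca1(-) pair the change of Myc was -1.35 and was not called (unadjusted p 0.038 and adjusted p 0.529 in limma). Wdr43, a scaffold protein of the early small subunit precursor and one of the genes with the E-box, was the only other gene of the set whose libraries did not overlap in this direction. It had 466, 443 and 345 normalized counts in injury and 589, 540 and 523 in control, a smaller change of -0.40 (95% interval -1.56 to 0.76).

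**Figure D3:**
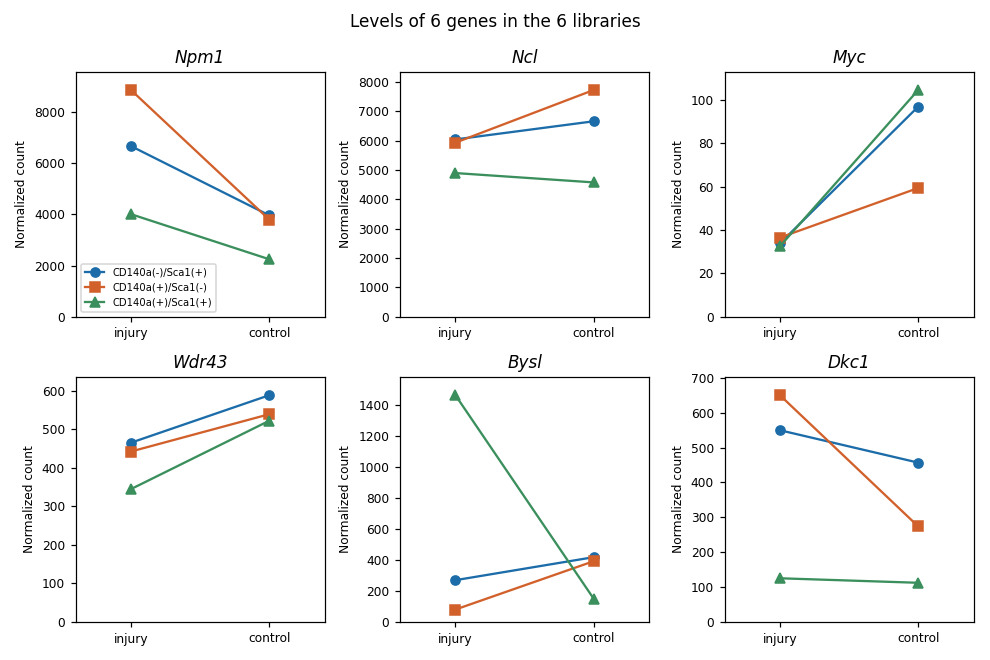
Normalized counts of Npm1, Ncl, Myc, Wdr43, Bysl and Dkc1 in injury (left in each panel) and control (right), with a line joining the 2 libraries of a subpopulation and each axis starting at 0. The injury points lie above all control points for Npm1 and below them for Myc and Wdr43, Bysl is higher with injury in CD140a(+)/Sca1(+) cells alone, and Dkc1 is lowest in CD140a(+)/Sca1(+) cells in either state.

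Within a subpopulation 1 library stood against 1, so changes of at least 2-fold were counted without a test. They were counted on the deposited scale, which shrinks low genes. Rrp12 and Nop2, 2.74-fold and 2.17-fold lower by normalized counts in CD140a(+)/Sca1(+) cells, therefore fell under the limit. In CD140a(-)/Sca1(+) cells, 0 of the 35 were higher and 3 lower, where 6.18% of all genes tested were higher and 14.2% lower. The 3 were Fbl, Gar1 and Myc. In CD140a(+)/Sca1(+) cells, 5 were higher (Bysl, Wdr12, Polr1c, Rcl1 and Rrp9) and 3 lower (Nop58, Myc and Ddx21), where 21.8% of all genes were higher and 14.0% lower. In CD140a(+)/Sca1(-) cells, 4 were higher (Rrp1b, Nob1, Npm1 and Dkc1) and 19 lower, where 12.8% of all genes were higher and 43.7% lower. The medians of the 35 changes were -0.19, -1.26 and 0.14 in CD140a(-)/Sca1(+), CD140a(+)/Sca1(-) and then CD140a(+)/Sca1(+) cells, and those of all genes tested were -0.23, -0.76 and 0.11. Without the CD140a(+)/Sca1(-) pair, the median change of the set was 0.05 against -0.05 for all genes, and 18 of the 35 changes were above 0. Still none was called, and 1 gene, Myc, had an unadjusted p under 0.05 in limma. For genes at 0 in that injury library, the change was 0.08 without the pair for Utp20 (-1.65 with it), 0.16 for Rrp9 (-1.31 with it), 0.48 for Polr1c (-1.02 with it), 0.31 for Rcl1 (-1.04 with it) and -0.50 for Rrp12 (-1.39 with it).

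The CD140a(+)/Sca1(-) injury library held no read for 7 of the 35 genes, namely Polr1b, Polr1c, Rrp9, Utp20, Rcl1, Rrp12 and Nop2. In this library 55.3% of all genes tested were at 0. Where the other 5 libraries averaged 20 normalized counts or more, 15.2% of 33 ribosome biogenesis genes were at 0, against 28.4% of all 7790 such genes. With 3 reads, or 2.94 normalized counts, in that library as the limit that a count of 0 allows, Utp20 was at least 65.5-fold lower than in control, Rrp9 at least 34.3-fold, Polr1c at least 28.4-fold, Rcl1 at least 22.7-fold, Rrp12 at least 14.4-fold, Nop2 at least 5.16-fold and Polr1b at least 3.21-fold. Bounds and intervals of this kind cover counting error only, and reads without molecular identifiers are not independent molecules. Nop10 had 3 reads against 712 in control, a level 155-fold lower with a 95% exact interval of 52.9 to 755, and Bop1 had 3 against 27, which is 5.89-fold lower (1.81 to 30.3).

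Among genes for the transcription of rRNA, Polr1a encodes the largest subunit of RNA polymerase I. Its levels were 244, 184 and 156 in injured CD140a(-)/Sca1(+), CD140a(+)/Sca1(-) and then CD140a(+)/Sca1(+) cells, against 210, 186 and 148 in control. Its change of 0.09 (95% interval -1.07 to 1.24) was among the smallest of the set. Polr1c, a subunit shared with RNA polymerase III, had 90.6, 0 and 97.0 in injury and 135, 83.5 and 28.2 in control, so its 3 pairs went in different directions. Polr1b, the second largest subunit of RNA polymerase I, did not exceed 22.5 normalized counts in any library.

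Among the other nucleolar scaffold and regulatory genes, the CD140a(+)/Sca1(-) pair had the largest change in 3 of 4. Nolc1, a nucleolar phosphoprotein that binds snoRNPs, had 378, 75.5 and 452 in injury and 374, 429 and 255 in control. Mybbp1a, a Myb-binding protein of the nucleolus, had 774, 203 and 647 in injury and 1112, 952 and 523 in control. In both genes the injured CD140a(+)/Sca1(-) library was the lowest of the 6 by a wide margin. Gnl3, which encodes nucleostemin, a nucleolar GTPase of proliferating cells, had 93.7, 65.4 and 309 in injury and 145, 270 and 356 in control, lower in 3 of 3 pairs but with overlapping groups. Ddx21, an RNA helicase that couples polymerase I transcription to processing, differed mainly in CD140a(+)/Sca1(+) cells, with 1439, 1336 and 596 in injury and 1488, 1556 and 1395 in control.

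Of the box C/D snoRNPs, which guide 2′-O-methylation of rRNA, the set holds Fbl, Nop56, Nop58 and Rrp9, whose mean changes were negative with unequal values in the pairs. Snu13, a core protein of these particles outside the set, had a mean change of 0.16. Fbl, the methyltransferase fibrillarin, had 33.2, 17.7 and 74.7 normalized counts in injury and 173, 95.1 and 74.2 in control. It was 5.23-fold lower in CD140a(-)/Sca1(+) cells and 5.38-fold lower in CD140a(+)/Sca1(-) cells, and nearly equal in CD140a(+)/Sca1(+) cells, and its mean change was -1.32 (SE 0.61, 95% interval -2.80 to 0.16). Without the CD140a(+)/Sca1(+) pair the change was -1.99 and was called (adjusted p in limma 0.670, with 0.438 to 0.866 over all alternatives), and it was called also under scaling by the 75th percentile. Without the CD140a(+)/Sca1(-) pair the change of Fbl was -1.03 and was not called. Nop58 had 1041, 768 and 1324 in injury and 1147, 2307 and 3635 in control, lower in 3 of 3 pairs by 1.10-fold, 3.01-fold and 2.75-fold, with a change of -1.05 (95% interval -2.37 to 0.27). Its partner Nop56 had 368, 248 and 488 in injury and 370, 609 and 377 in control, so that only the CD140a(+)/Sca1(-) pair differed by 2-fold. Rrp9 encodes a protein specific to the U3 snoRNP, and its levels were 78.0, 0 and 70.0 in injury and 144, 101 and 26.2 in control.

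The 4 core proteins of the box H/ACA snoRNPs, which guide the conversion of uridine to pseudouridine, form 1 particle, and their transcripts differed from each other. Dkc1, the pseudouridine synthase dyskerin, had 550, 650 and 125 in injury and 457, 274 and 112 in control, 1.12-fold to 2.38-fold higher within the pairs. Nhp2 stayed between 320 and 493 in all 6 libraries. Gar1 had 184, 28.6 and 178 in injury and 475, 319 and 131 in control, and Nop10 had 239, 2.94 and 432 in injury and 397, 457 and 321 in control. In the injured CD140a(+)/Sca1(-) library the 4 transcripts therefore ran from 650 (Dkc1) and 414 (Nhp2) to 28.6 (Gar1) and 2.94 (Nop10). Gar1 was called without the CD140a(+)/Sca1(+) pair, with a change of -2.19, and Nop10 with an intensity trend in limma, with a change of -1.87. Without the CD140a(+)/Sca1(-) pair the change of Gar1 was -0.45 and that of Nop10 was -0.14, and neither was called.

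Of the 11 small subunit genes, 4 had a mean change above 0 and the median was -0.29. Bysl, which encodes bystin, a late assembly factor, had the largest difference between pairs, with 269, 79.5 and 1465 in injury and 418, 392 and 149 in control. Its level was 9.82-fold higher with injury in CD140a(+)/Sca1(+) cells and 4.93-fold lower in CD140a(+)/Sca1(-) cells. Nob1, the nuclease that makes the final cut of the small subunit rRNA, went the other way, with 35.4, 253 and 45.2 in injury and 59.9, 93.5 and 81.1 in control. Utp20, a large scaffold of the early particle, was level outside the CD140a(+)/Sca1(-) pair, with 112 and 60.0 in injured CD140a(-)/Sca1(+) and CD140a(+)/Sca1(+) cells and 105 and 56.5 in control. Nop14 had the narrowest spread between pairs, with 81.5, 114 and 162 in injury and 99.7, 138 and 210 in control, a change of -0.29 (95% interval -1.44 to 0.86). Tsr1 (107 to 215 over the 6 libraries), Wdr75 (35.7 to 85.1), Ddx10 (49.8 to 161), Ltv1 (21.6 to 184), Rcl1 (0 to 211) and Rrp12 (0 to 42.4) complete the group, and in Ltv1, Rcl1 and Rrp12 the lowest value was that of the injured CD140a(+)/Sca1(-) library.

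The 6 large subunit genes had a median change of 0.03. Bop1, Pes1 and Wdr12 encode the PeBoW complex, which is needed to process the precursor of the large subunit rRNAs. Pes1 had 412, 502 and 268 in injury and 517, 383 and 180 in control, and Wdr12 had 203, 379 and 536 in injury and 328, 260 and 161 in control. For both genes the ratio within the pair was below 1 in CD140a(-)/Sca1(+) cells and above 1 in the other 2 subpopulations, up to 3.34 for Wdr12 in CD140a(+)/Sca1(+) cells. Rrp1b, a nucleolar protein of the large subunit pathway, had 78.1, 221 and 76.3 in injury and 90.03, 69.2 and 75.9 in control, so that 1 library stood above the rest. Nop16 ranged between 228 and 995 over the libraries, and Bop1 and Nop2, of which Nop2 encodes an rRNA methyltransferase, did not exceed 64.2 and 23.6 in any library.

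The sort itself was the other factor of the design, and each subpopulation was compared with the mean of the other 2, with the state as covariate. Dkc1 was lower in CD140a(+)/Sca1(+) cells, with 125 and 112 normalized counts in injury and control, against 550 and 457 in CD140a(-)/Sca1(+) and 650 and 274 in CD140a(+)/Sca1(-) cells. The difference of -1.86 (SE 0.54, 95% interval -3.18 to -0.54) was called at a background of 1.79% of all genes in either direction, with an adjusted p of 0.986 in limma. Each of its 10 alternatives gave a negative value (-2.16 to -1.57, adjusted p 0.079 to 1), and 5 kept the call. Rcl1, an endonuclease-like protein of small subunit processing, was lower in CD140a(+)/Sca1(-) cells (-2.51, SE 1.01, adjusted p 0.615 in limma), where 4.38% of all genes were called. Its levels were 0 and 66.8 there in injury and control, against 131 and 211 in CD140a(-)/Sca1(+) and 119 and 43.3 in CD140a(+)/Sca1(+) cells, and without the injured CD140a(+)/Sca1(-) library the difference was -0.49 and was not called. None of the 35 genes was called for CD140a(-)/Sca1(+) cells, where 1.61% of all genes were. Without the control CD140a(+)/Sca1(-) library, the injured library alone stood for CD140a(+)/Sca1(-) cells in this fit, and 15 of the 35 were called for that subpopulation, as were 33.4% of all genes tested.

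Other genes of the pathway showed no call for injury either. Of 150 further ribosome biogenesis genes, from polymerase I factors to subunit assembly and the nuclear exosome, 149 were tested, 0 were called for injury, and the median change was -0.58. In the sort, 2 were called higher for CD140a(-)/Sca1(+) cells, and 1 higher and 5 lower for CD140a(+)/Sca1(-) cells. None was called for CD140a(+)/Sca1(+) cells, and the shares of all genes called were 1.61%, 4.38% and 1.79%. At an unadjusted p under 0.05 for injury, 1 of the 149 was lower and none higher. Ubtf, which opens ribosomal DNA for polymerase I, had 347, 51.0 and 431 normalized counts in injury and 502, 704 and 266 in control. Exosc2, a subunit of the exosome that trims rRNA precursors, had 350, 949 and 473 in injury and 244, 248 and 221 in control, with a change of 1.15 (SE 0.53) that did not pass the test. Without the CD140a(+)/Sca1(-) pair the median change of the 149 was -0.01. At least 2-fold, 1 was higher and 18 lower within CD140a(-)/Sca1(+) cells, where 6.18% of all genes were higher and 14.2% lower. Within CD140a(+)/Sca1(-) cells 14 were higher and 93 lower (all genes 12.8% and 43.7%), and within CD140a(+)/Sca1(+) cells 32 were higher and 7 lower (all genes 21.8% and 14.0%).

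Of the 30 other genes known to be induced by Myc and of the 11 genes of the Myc and Max network, none was called for injury, and none had an unadjusted p under 0.05 there. Max had 220, 341 and 395 normalized counts in injury and 1424, 708 and 289 in control. Slc3a2, a subunit of amino acid transporters, had 2825, 4056 and 2345 in injury and 4005, 7682 and 11729 in control, lower in 3 of 3 pairs. Of the 30 Myc-induced genes, 0 were at least 2-fold higher and 3 lower within CD140a(-)/Sca1(+) cells (all genes 6.18% and 14.2%). Within CD140a(+)/Sca1(-) cells 4 were higher and 12 lower (all genes 12.8% and 43.7%). Within CD140a(+)/Sca1(+) cells 15 were higher and 1 lower (all genes 21.8% and 14.0%). The median change of the 30 was -0.09, and without the CD140a(+)/Sca1(-) pair it was 0.24. Among the 79 cytosolic ribosomal proteins, the products that the pathway assembles with rRNA, 1 was called for injury, Rps14, which was lower (-1.59, SE 0.55). The median change of the 79 was 0.12, and without the CD140a(+)/Sca1(-) pair it was 0.18.

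Proliferation genes were read beside the set in the same libraries. Of 20 such genes, 5 were called higher and none lower (all genes 2.3% and 3.46%). The change was above 0 for 17 of the 20, and the median was 0.95. Without the CD140a(+)/Sca1(-) pair the change was above 0 for all 20, and the median was 1.25. Cdk1, the kinase that drives mitosis, had 219, 104 and 845 normalized counts in injury and 12.7, 9.03 and 41.0 in control, a change of 3.32 (SE 0.53). Top2a, a topoisomerase of dividing cells, had 70.0, 185 and 216 in injury and 5.25, 7.07 and 5.30 in control. At least 2-fold, 6 of the 20 were higher and 2 lower within CD140a(-)/Sca1(+) cells (all genes 6.18% and 14.2%). Within CD140a(+)/Sca1(-) cells 7 were higher and 6 lower (all genes 12.8% and 43.7%). Within CD140a(+)/Sca1(+) cells 16 were higher and 0 lower (all genes 21.8% and 14.0%). Among 14 targets of p53, which responds to stress in the nucleolus among other signals, 5 were called lower and none higher. Of the 14 mean changes 4 were above 0, and the median was -0.87. Without the CD140a(+)/Sca1(-) pair 1 of the 14 was above 0, and the median was -0.86. At least 2-fold, 0 of these targets were higher and 8 lower within CD140a(-)/Sca1(+) cells (all genes 6.18% and 14.2%). Within CD140a(+)/Sca1(-) cells 4 were higher and 8 lower (all genes 12.8% and 43.7%). Within CD140a(+)/Sca1(+) cells 0 were higher and 6 lower (all genes 21.8% and 14.0%). The largest mean change of these targets was in Cdkn1a, which encodes the cell cycle inhibitor p21, with 1003, 326 and 198 in injury and 4305, 2116 and 5471 in control, a change of -3.15 (SE 0.66). The difference between the lists was not tested, and the adjusted p-values of Cdk1 and Cdkn1a were 0.288 and 0.386 in limma.

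**Figure D4:**
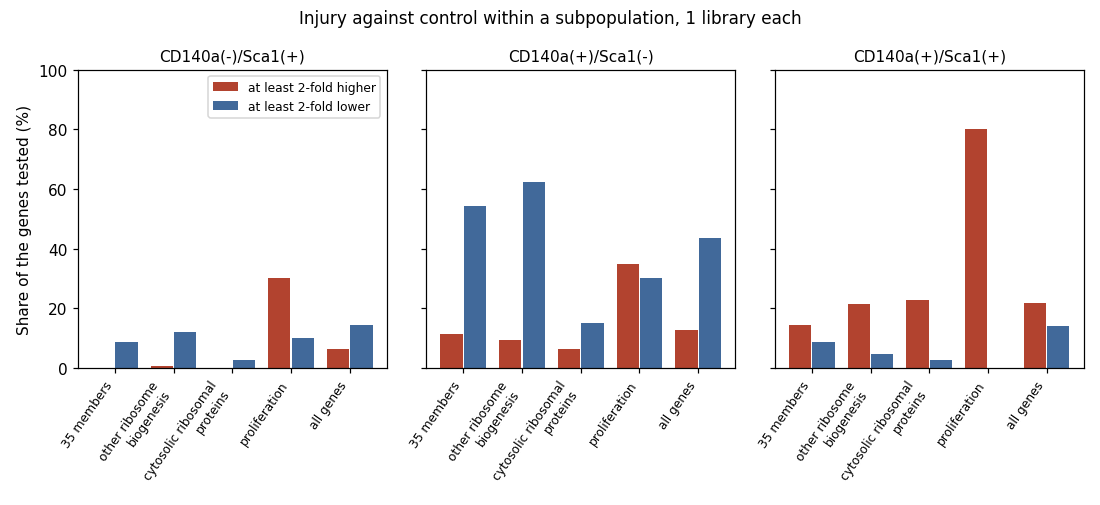
Share of the genes tested that were at least 2-fold higher (red, left bar) or lower (blue, right bar) in injury than in control within each subpopulation. Bars are given for the 35 genes, 3 other gene lists and all genes, with folds from the deposited scale. The 35 genes show 0 higher and 3 lower in CD140a(-)/Sca1(+) cells, 4 and 19 in CD140a(+)/Sca1(-) cells and 5 and 3 in CD140a(+)/Sca1(+) cells, and the 20 proliferation genes show 6 and 2, 7 and 6, and 16 and 0 in the same order.

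For 7 of the 35 genes, the 3′ end, where this method reads, lies within a protein-coding gene of the opposite strand (Mybbp1a, Nop56, Dkc1, Nhp2, Bysl, Tsr1 and Bop1). The strand used in counting is not given in the sources used here, so reads of such pairs cannot be told apart. For Bysl the partner is Ccnd3, with 13.3, 0 and 28.0 normalized counts in injury and 46.7, 18.5 and 10.7 in control. For Dkc1 the partner is Mpp1, with 45.3, 73.8 and 126 in injury and 65.0, 47.4 and 68.6 in control.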

How the data were processed

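Sorted cells were profiled by 3′ mRNA sequencing (QuantSeq, Ion Proton), 1 library per group. The authors aligned reads with STAR to GRCm38 and deposited log2 values from the variance stabilizing transformation of DESeq2. The transformation was inverted to normalized counts from its lowest value (2.57), and depth was estimated from the step between low values, of which 55.8% to 63.7% per library lay within 0.02 of a whole read. Since these shares are not complete, no count model was run. limma 3.58.1 (R 4.3.3) was fitted to the deposited values of 15532 genes, those reaching 8 at the 80th percentile on the linear form of that scale, with subpopulation as block, or with state as covariate for the sort. The code of the fit was run on counts simulated from the control means, to see whether set changes were recovered. The simulation had no subpopulation effect and no library that lacked reads for well-detected genes, so it does not test the calls made here. Symbols were found for 22453 of the 22483 identifiers, and positions are those of GENCODE M21. All 35 genes of the list could be named in the text. From other lists, up to 4 genes with the largest called change, or with the highest mean where none was called, could be named. Promoter sequence was to be shown for the 3 genes with the lowest p, which had no entry, so stretches around the E-box are shown instead, a choice made after the search. The members and the gene lists were chosen with earlier results of these data known. Alternatives covered scaling, filter, pseudocount, variance model, thresholds and leaving out each pair or library. Python 3.11 was used for the other steps.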

Additional observations from a re-analysis of the deposited data

Results flagged for a closer look

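Genes of the set were looked at again where the pairs of 2 subpopulations differed by at least 2-fold in opposite directions. There were 4, and in all 4 the change in CD140a(+)/Sca1(+) cells was positive and that in CD140a(+)/Sca1(-) cells negative. Of all genes tested, 21.8% were at least 2-fold higher in the CD140a(+)/Sca1(+) pair. In the CD140a(+)/Sca1(-) pair, with the library that lacked reads, 43.7% were at least 2-fold lower. The share of all genes that met both was not counted, so the 4 are not shown to be a trait of the set. Polr1c changed by 1.47 in CD140a(+)/Sca1(+) cells and by -4.00 in CD140a(+)/Sca1(-) cells, a difference of 5.47 on the log2 scale. For Rrp9 the changes were 1.13 and -4.25, a difference of 5.38, and for Rcl1 they were 1.26 and -3.72, a difference of 4.98. These 3 genes were at 0 in the injured CD140a(+)/Sca1(-) library, so the size of the difference depends on the scale. Bysl was not at 0 there, and its changes of 3.20 and -2.15 differ by 5.35. With 1 library per group the differences were not tested.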

How the results depend on the processing

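None of the 35 genes was called for injury with a pseudocount of 1 or 0.5, a filter on normalized counts, no filter, quantile normalization, median-ratio scaling, the unmoderated test, no replicate block, or either change of the thresholds. The limit of p under 0.01 is stricter than the main rule and could not add a call. Without the limit on the fold, 4 of the 35 had an unadjusted p under 0.05 with no filter. There were 2 each with median-ratio scaling, the unmoderated test and no replicate block. Scaling by the 75th percentile called 3 lower (Myc, Nop58 and Fbl), an intensity trend called 1 (Nop10), and leaving out 1 pair called 0 to 2. The 75th percentile factor of the injured CD140a(+)/Sca1(-) library was 2.47, against 0.699 to 0.917 in the others, and under it 1 of the 35 changes was above 0. Over 15 alternatives 15 of the 35 genes kept the sign of their change, and 30 were never called. The filters, the intensity trend, the unmoderated test, the fit without block and the changed thresholds leave each log2 change as it is. The sign could therefore change only under the other scalings, the pseudocounts and the fits without 1 pair. The median change of the set stayed between -1.04 (75th percentile) and 0.05 (without the CD140a(+)/Sca1(-) pair).

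Over all genes, those called higher for injury numbered 181 with no filter, 164 with 75th percentile scaling, 114 with the unmoderated test and 144 at p under 0.01, and 183 to 456 without 1 pair, against 357 in the fit reported. Those called lower numbered 866 with a pseudocount of 1, 907 with 0.5, 245 with no filter, 1088 with 75th percentile scaling, 180 with the unmoderated test and 183 at p under 0.01, and 412 to 563 without 1 pair, against 537. Without the replicate block 337 were higher and 485 lower. Adjusted p was under 0.05 for 15 genes with the filter on normalized counts, 95 with the trend and 73 without the CD140a(+)/Sca1(-) pair, none of them among the 35.

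In the sort, a pseudocount of 1 called 0 of the 35 for CD140a(+)/Sca1(-) and 0 for CD140a(+)/Sca1(+) cells. Leaving out 1 library called 0 to 9 for CD140a(-)/Sca1(+), 0 to 15 for CD140a(+)/Sca1(-) and 0 to 4 for CD140a(+)/Sca1(+) cells, and in each the highest count came without the control CD140a(+)/Sca1(-) library. A subpopulation left with 1 library was assumed to vary like the others. Over all genes, without 1 library, 52 to 1551 were higher and 29 to 251 lower for CD140a(-)/Sca1(+), 24 to 852 and 197 to 4333 for CD140a(+)/Sca1(-), and 63 to 1578 and 20 to 352 for CD140a(+)/Sca1(+) cells. Quantile normalization gave 80 lower calls for CD140a(-)/Sca1(+) cells and 193 higher calls for CD140a(+)/Sca1(-) cells, and a pseudocount of 1 gave 947 lower calls for CD140a(+)/Sca1(-) cells.

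Within CD140a(-)/Sca1(+) cells, 1 of the 35 was at least 3-fold lower, and 1 was higher and 9 lower by at least 1.5-fold. Within CD140a(+)/Sca1(-) cells, 0 were at least 3-fold higher on the deposited scale, where Rrp1b was 3.19-fold higher in normalized counts. Within CD140a(+)/Sca1(+) cells, median-ratio scaling gave 3 higher and 6 lower, the 3-fold limit 2 higher and 0 lower, and the 1.5-fold limit 8 higher and 6 lower. In normalized counts Polr1c was 3.43-fold higher and Myc 3.22-fold lower there, and both fell under the 3-fold limit on the deposited scale. The mean difference in the share of the library was -0.114 percentage points without Ncl and Npm1, against 0.017 for all 35. The cause of these differences was not tested. Depth limits the low members: in the shallowest library 1 read is 0.981 normalized counts.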
